A study of Homo sapiens and Mus musculus with 19 samples.

Results

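The 8 genes described here were nearly silent in K562 cells of one TET2 genotype and active in cells of the other. They were chosen by that difference from chromatin-associated RNA (caRNA) counts, out of 58721 genes in the K562 tables, of which 26023, all 8 among them, passed the filter on low counts. DACH1, ARHGAP15 and the long non-coding RNA LINC03056 were the ones active in TET2 knockout (KO) cells, and PTPRC, ZNF804A, PAK5, ROBO1 and the long non-coding RNA LINC01818 were the ones active in wild-type (WT) cells. Because the contrast between genotypes chose them, it is given below as levels, without a test.

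K562 is an established human chronic myeloid leukaemia line; the labels name its cells as lymphoblasts from bone marrow. caRNA is the RNA that stays with the chromatin pellet after the cytoplasm and the soluble nuclear fraction are washed off, so introns and unspliced transcripts are well represented. The 12 libraries fall into 4 groups of 3, namely TET2 WT and TET2 KO cells, each stably expressing from a lentiviral vector, under puromycin selection, either a control hairpin (shControl) or one against MBD6 (shMBD6). Both parental lines came from another laboratory, and whether the KO line is 1 clone is not given in the sources used here, so that TET2 status and line cannot be told apart. The labels do not say that replicates were separate cultures, and p-values measure the spread between these libraries only.

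TET2 oxidises 5-methylcytosine, in DNA and, as the study addresses, in RNA, and MBD6 belongs to a protein family named for a methyl-CpG-binding domain and works with the complex that removes ubiquitin from histone H2A. Loss of TET2 is frequent in myeloid leukaemia and clonal haematopoiesis. In chromatin, RNA still bound at a gene is mostly young transcript, so that a gene without caRNA is usually one that is little transcribed.

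Total gene counts ran from 52158403 to 102070223 per library. TET2 RNA itself was not lower in the shControl KO libraries, at 129 ± 2.22 CPM (gene counts scaled to the size of the library, mean ± SD, n = 3) against 121 ± 2.59 in WT (log2 change 0.09, edgeR quasi-likelihood adjusted p = 0.0735). In the shMBD6 pair it was lower in KO, at 94.8 ± 5.27 against 121.5 ± 4.07 CPM (-0.36, edgeR adjusted p = 3.9e-09). Within KO it was lower in the libraries labelled shMBD6 than in shControl (-0.44, edgeR adjusted p = 7.23e-11). An RNA level does not by itself check an edit. MBD6 was at 41.5 ± 2.55 CPM in WT shControl and 27.9 ± 2.71 in WT shMBD6, and fell by 0.57 on the log2 scale (edgeR adjusted p = 1.83e-07). In TET2 KO the levels went against the label, at 30.3 ± 0.749 CPM in shControl and 34.4 ± 3.86 in the libraries labelled shMBD6 (log2 change 0.19, adjusted p = 0.0574), and the latter are named by their label throughout. Of 12 erythroid markers 10 passed the filter and HBG2 and HBE1 were at 0 counts in every library. A count of 0 does not show that a gene was silent. In these libraries 4.63% to 5.24% of read records were ambiguous between genes and were counted for none. Their summed level was 1132 to 1169 CPM in WT shControl, 682 to 704 in WT shMBD6, 572 to 585 in KO shControl and 805 to 822 in the KO libraries labelled shMBD6.

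The DNA in front of these genes is shown because TET2 acts on methylated cytosines, and because the 8 genes differ widely in CpG content. MBD6 is named for a methyl-CpG-binding domain, but in mouse embryonic stem cells the study found RNA, and not DNA, cross-linked to it. A CpG is a C followed by a G, the usual site of DNA methylation. RefSeq windows on GRCh38.p14, running from 250 bases before to 50 bases after a gene start (300 bases), matched all 8 genes. They held 0 CpGs at LINC03056 and LINC01818, 1 at PTPRC, 4 at ARHGAP15, 12 at DACH1, 17 at PAK5, 11 and 15 at the 2 starts of ROBO1, and 36 at ZNF804A. The median of all 35116 RefSeq promoters was 14. Below are 2 promoters of genes active in KO cells (DACH1, chr13:71867155-71867454, minus strand, and ARHGAP15, chr2:143129169-143129468, plus strand) and 2 of genes active in WT cells (PTPRC, chr1:198638790-198639089, plus strand, and ZNF804A, chr2:184598279-184598578, plus strand), each 5′ to 3′ with CpGs in capitals.
DACH1: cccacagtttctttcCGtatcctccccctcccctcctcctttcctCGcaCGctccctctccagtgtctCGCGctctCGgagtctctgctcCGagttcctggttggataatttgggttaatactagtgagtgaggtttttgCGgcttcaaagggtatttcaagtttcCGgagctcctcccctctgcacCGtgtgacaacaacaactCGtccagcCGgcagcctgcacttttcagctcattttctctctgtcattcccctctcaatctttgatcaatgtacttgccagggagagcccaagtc
ARHGAP15: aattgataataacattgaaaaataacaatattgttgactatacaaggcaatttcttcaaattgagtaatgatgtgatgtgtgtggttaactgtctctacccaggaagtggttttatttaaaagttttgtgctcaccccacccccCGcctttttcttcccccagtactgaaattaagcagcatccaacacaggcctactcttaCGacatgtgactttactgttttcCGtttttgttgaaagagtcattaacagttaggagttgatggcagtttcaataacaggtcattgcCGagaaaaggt
PTPRC: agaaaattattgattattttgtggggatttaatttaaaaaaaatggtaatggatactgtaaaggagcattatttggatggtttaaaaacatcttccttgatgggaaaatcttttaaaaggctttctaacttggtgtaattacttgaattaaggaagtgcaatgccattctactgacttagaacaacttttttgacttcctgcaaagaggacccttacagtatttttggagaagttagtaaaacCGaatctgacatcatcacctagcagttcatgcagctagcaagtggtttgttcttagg
ZNF804A: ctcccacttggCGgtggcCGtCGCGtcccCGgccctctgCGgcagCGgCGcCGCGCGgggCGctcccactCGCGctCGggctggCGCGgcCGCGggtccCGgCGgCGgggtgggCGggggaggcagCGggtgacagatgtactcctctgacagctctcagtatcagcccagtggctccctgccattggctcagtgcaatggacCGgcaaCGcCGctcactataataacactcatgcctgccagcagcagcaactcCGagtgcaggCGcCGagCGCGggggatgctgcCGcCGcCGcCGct
The windows of PTPRC and ZNF804A stand near the ends of the range, since 4.0% of all promoters held fewer CpGs than the former and 87.3% fewer than the latter, although both genes were active in WT cells and near-silent in KO cells. ARHGAP15 and DACH1 lay between, at 24.5% and 46.9%. Searched on both strands, AGATAA (the core of a GATA site) occurred only in the outer ROBO1 window, against 10.3% of all promoters. CACCC, a core of KLF sites, occurred in the windows of ARHGAP15, LINC03056, ZNF804A and PAK5 and in the inner ROBO1 window, against 59.9%. GGGCGG, the GC box, occurred at ZNF804A alone, against 45.0%, and TATAAA at none, against 11.5%. The RefSeq start of ARHGAP15 lies inside the annotated gene, which begins at chr2:143091362 in the annotation used for the counts' gene names.

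The 8 genes lie on chromosomes 1, 2, 3, 12, 13 and 20, with 3 of them (ARHGAP15, LINC01818 and ZNF804A) on chromosome 2. They are long: ROBO1 spans 1171 kb, ARHGAP15 677 kb, DACH1 429 kb, ZNF804A 341 kb, PAK5 302 kb and PTPRC 119 kb, against a median of 35.9 kb for 16266 tested protein-coding genes. The 6 coding genes stood at the 82.3rd to the 99.7th percentile of that span. The RNAs LINC01818 (187 kb) and LINC03056 (67.4 kb) stood at the 92.2nd and 78.3rd percentile of 7289 tested long non-coding RNAs, whose median was 19.8 kb. Where introns are counted, a long gene collects more caRNA reads at a given transcription rate, and so passes a minimum of reads more easily.

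DACH1 (ENSG00000276644.4, chr13:71437966-71867204, minus strand) encodes a nuclear cofactor of the dachshund family, which acts with EYA coactivators. Its level was 0.789, 1.01 and 1.44 CPM in the WT shControl libraries and 6.69, 8.51 and 7.12 CPM in the WT shMBD6 libraries. In KO cells it was 329, 334 and 324 CPM with shControl and 212, 197 and 209 CPM in the libraries labelled shMBD6. Both WT groups lay far below both KO groups, and within each genotype the hairpin groups did not overlap. The fitted KO/WT log2 change, which chose the gene, was 8.22 between shControl libraries and 4.81 between shMBD6 libraries.

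ARHGAP15 (ENSG00000075884.13, chr2:143091362-143768352, plus strand) encodes a GTPase-activating protein that switches off Rac. It was the most abundant of the 8, at 881, 913 and 901 CPM in KO shControl and 602, 598 and 646 CPM in the KO libraries labelled shMBD6. The WT libraries held 2.77, 4.45 and 3.13 CPM with shControl and 13.1, 13.2 and 14.1 CPM with shMBD6, again with no overlap between any 2 groups. KO levels were 256-fold and 45.7-fold those of WT with shControl and shMBD6. The 2 annotated genes that overlap it on its own strand had 0 counts in every library, and the antisense RNA ENSG00000228655, which covers 44.7% of it, also had 0. A read that lies in 2 genes can be left out as ambiguous, so these counts do not show that the overlapping genes were silent.

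LINC03056 (ENSG00000258117.2, chr12:63292625-63360037, minus strand) gave 123, 119 and 123 CPM in KO shControl and 60.6, 69.3 and 69.2 CPM in the KO libraries labelled shMBD6. WT shControl libraries held 0.332, 0.652 and 0.876 CPM, and WT shMBD6 libraries 1.90, 2.01 and 1.99 CPM. The 4 groups were separate, and the KO/WT log2 change was 7.55 and 5.08. No annotated gene overlaps it on either strand.

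PTPRC (ENSG00000081237.19, chr1:198638457-198757476, plus strand) encodes CD45, the receptor tyrosine phosphatase of nucleated blood cells that sets the activity of SRC-family kinases. It was at 91.6, 96.4 and 95.7 CPM in WT shControl and at 67.5, 70.5 and 76.4 CPM in WT shMBD6. In KO shControl the 3 libraries held only 9, 3 and 9 reads (0.107, 0.0522 and 0.119 CPM), and in the KO libraries labelled shMBD6 5, 18 and 5 reads (0.0761, 0.257 and 0.0649 CPM). This was the deepest silence among the 8 genes, with a KO/WT log2 change of -9.91 and -9.07, and with so few reads the 2 KO groups overlapped. Levels of 8 lymphoid markers were low in all 4 groups, with summed ranges between 25.1 and 35.8 CPM that came mostly from RAG1 (23.1 to 30.0 CPM by group mean). The 8 monocyte and granulocyte markers summed to 27.1 to 31.3 CPM in WT shControl and 48.7 to 53.4 in KO shControl, and to 41.6 to 44.1 and 46.3 to 49.5 in the WT and KO libraries labelled shMBD6, with ELANE at 0 in every library. The 6 megakaryocyte markers summed to 37.9 to 43.9 and 29.1 to 35.0 CPM in the shControl pair and 38.7 to 44.6 and 22.8 to 29.3 in the shMBD6 pair, nearly all ITGA2B. In bulk RNA, fewer cells with the transcript and less of it per cell cannot be told apart.

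ZNF804A (ENSG00000170396.7, chr2:184598529-184939492, plus strand) encodes a zinc-finger protein best known from neurons. WT shControl libraries held 69.8, 71.7 and 69.8 CPM, and WT shMBD6 libraries held 139, 144 and 146 CPM. The KO libraries held 0.357, 0.383 and 0.237 CPM with shControl and 0.411, 0.314 and 0.389 CPM in those labelled shMBD6, 18 to 30 reads each. The KO/WT log2 change was -7.76 and -8.59. The 2 WT groups were separate, and the 2 KO groups overlapped.

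PAK5 (ENSG00000101349.16, chr20:9537370-9839076, minus strand) encodes a p21-activated kinase that is mostly a brain protein. It was at 28.0, 27.6 and 25.5 CPM in WT shControl and 28.6, 24.4 and 30.2 CPM in WT shMBD6, groups that overlapped. KO libraries held 0.131, 0.435 and 0.198 CPM with shControl and 0.122, 0.271 and 0.130 CPM in those labelled shMBD6, 8 to 25 reads each, and overlapped too. The KO/WT log2 change was -6.82 and -7.31.

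ROBO1 (ENSG00000169855.19, chr3:78597239-79767998, minus strand) encodes a receptor for SLIT guidance ligands. WT libraries held 109.5, 115 and 110.0 CPM with shControl and 102, 104 and 108 CPM with shMBD6. KO libraries held 2.56, 1.76 and 3.02 CPM with shControl and 1.14, 0.855 and 1.27 CPM in those labelled shMBD6. It was the least silent of the 5 genes active in WT cells, with a KO/WT log2 change of -5.49 and -6.58, and it alone of them had KO groups that did not overlap.

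LINC01818 (ENSG00000230645.1, chr2:150169474-150356460, plus strand) was at 35.5, 35.0 and 31.8 CPM in WT shControl and 39.2, 39.1 and 38.3 CPM in WT shMBD6. KO libraries held 0.0953, 0.296 and 0.395 CPM with shControl and 0.167, 0.114 and 0.156 CPM in those labelled shMBD6, 8 to 30 reads each. The KO/WT log2 change was -7.06 and -8.04. Its antisense partner LINC01817, over 11.8% of its span, had at most 53 reads in a library.

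**Figure D1:**
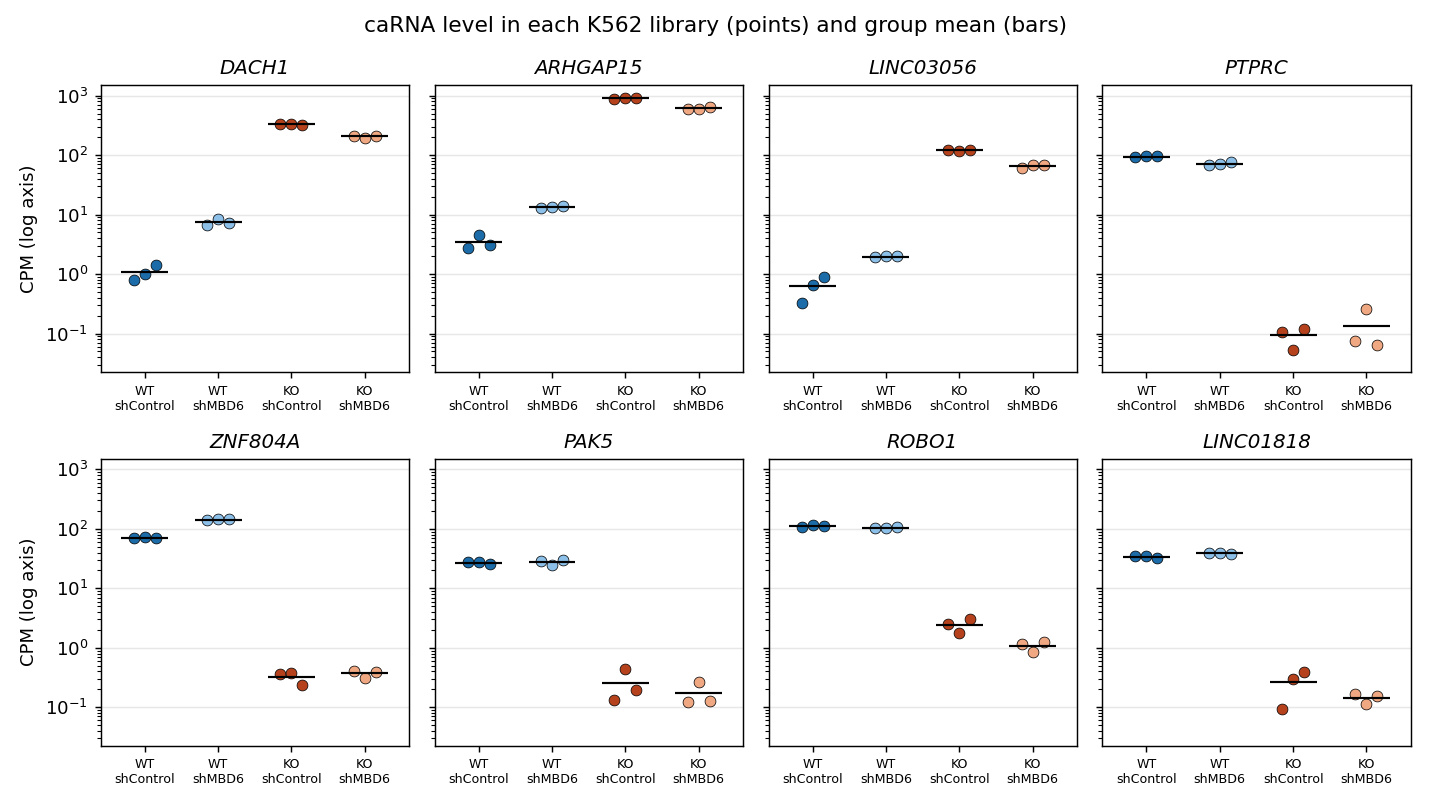
caRNA level of each of the 8 genes in CPM on a log axis, with 1 point per library, 3 libraries in each of the 4 groups, and a bar at the group mean. In all 8 panels the 6 WT and the 6 KO libraries form separate sets, with DACH1, ARHGAP15 and LINC03056 high in KO and the other 5 high in WT.

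Across the 8 genes, the 6 WT and 6 KO libraries of each did not overlap in 8 of 8, beside 17.8% of all genes. The genotype contrast passed edgeR's threshold in 45.8% of all genes between shControl libraries and in 58.6% between shMBD6 libraries, and nothing is read from this count, since the contrast chose the genes. By direction, 23.5% of all genes were higher and 22.3% lower in KO in the shControl pair, and 30.1% and 28.5% in the shMBD6 pair, and changes of at least 2-fold made up 17.7% and 26.9%. Per kb of gene span, mean levels in the active genotype with shControl were 1.81 CPM for LINC03056, 1.33 for ARHGAP15, 0.795 for PTPRC, 0.766 for DACH1, 0.207 for ZNF804A, 0.182 for LINC01818, 0.0953 for ROBO1 and 0.0896 for PAK5. PTPRC and DACH1, with libraries at 0.770 to 0.810 and 0.755 to 0.778 CPM per kb, did not differ beyond their spread, and the other neighbours in this order did not overlap. The order rests on dividing by span, and whether the counts cover introns was not checked. Per kb of exon, PTPRC stood at 6.13 CPM in WT shControl and DACH1 at 57.9 in KO shControl. Mean levels per kb of span in the silent genotype with shControl ran from 0.000778 for PTPRC to 0.0092 for LINC03056. For scale, 400 olfactory receptor genes averaged 0.0636 CPM per kb in WT shControl. That mean lay below ROBO1 and PAK5 but in the same order of size, and above all of these silent levels.

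The rule carries no number of its own. To place the 8 genes, a minimum of 5 CPM in the active genotype and at least 32-fold between the mean levels of shControl libraries was used as a description. It held for all 8 and for 48 other genes active in KO, 51 in all, and for 4 others active in WT (CSMD3, B3GALNT1, PARP15 and CHMP1B2P), 9 in all. The genes nearest that boundary were CPNE4 (32.2-fold, inside) and TCN1 (31.5-fold, outside) among those active in KO, and PARP15 (41.0-fold, inside) and CTLA4 (31.7-fold, outside) among those active in WT. The 8 genes ranged from 45.6-fold for ROBO1 to 1021-fold for PTPRC.

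The low side of each gene can be read as a percentage of the active genotype under the same hairpin label. In WT shControl, DACH1 stood at 0.328% of its KO level (libraries at 0.240% to 0.439%), ARHGAP15 at 0.384% and LINC03056 at 0.509%. In WT shMBD6 the same 3 genes stood at 3.61%, 2.19% and 2.96%, with libraries of the 2 groups apart in each gene. Part of that is the lower KO level under the same label: against KO shControl, the WT shMBD6 values were 2.26%, 1.501% and 1.61%. For PTPRC the KO value was 0.0979% with shControl and 0.185% in the libraries labelled shMBD6, with libraries overlapping. For ROBO1 it was 2.19% and 1.04%. ZNF804A, PAK5 and LINC01818 lay between 0.259% and 0.942% in both KO groups. Among the 48 other genes active in KO, the median was 1.40% in WT shControl and 6.58% in WT shMBD6, or 4.07% against KO shControl.

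**Figure D2:**
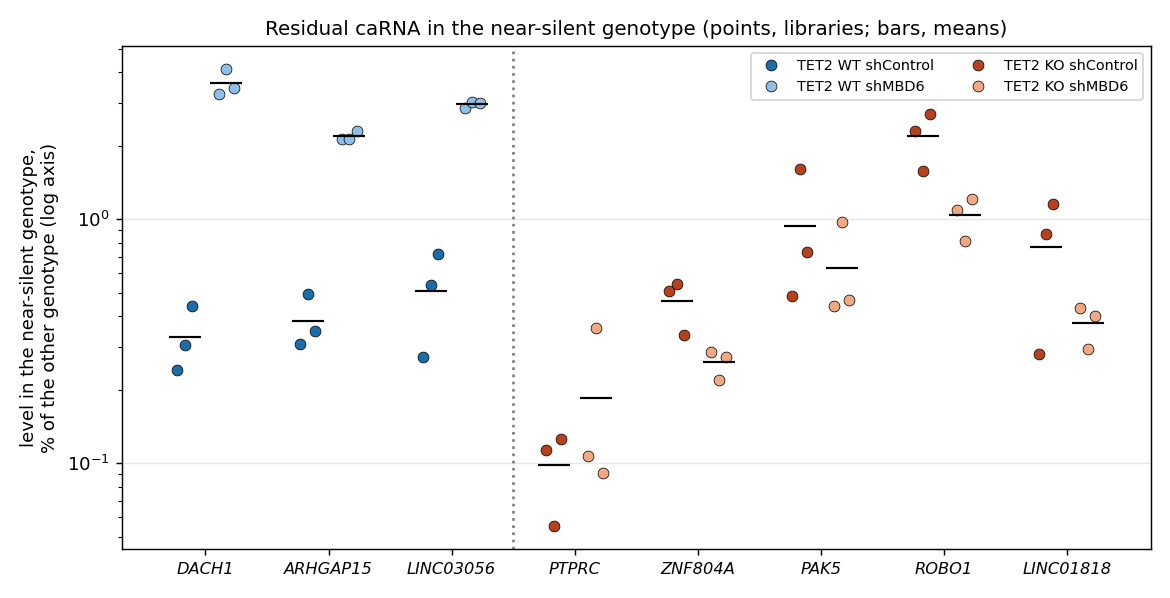
Level in the near-silent genotype as a percentage of the mean in the active genotype with the same hairpin label, on a log axis, with 1 point per library and a bar at the mean. DACH1, ARHGAP15 and LINC03056 lie between 0.240% and 0.720% in WT shControl and between 2.13% and 4.13% in WT shMBD6, while the other 5 genes stay between 0.0552% and 2.70% in KO.

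The second question is whether these genes differed between the hairpin labels. It was tested within each genotype, with the 4 groups in 1 edgeR quasi-likelihood fit and Benjamini-Hochberg adjustment over 26023 genes. This contrast did not choose the genes, but its shControl baselines are libraries that did, in both genotypes. That choice favours a rise from the low side and a fall from the active side, by an amount not tested. The p-values and counts below therefore describe these libraries and do not settle whether the hairpin moved the genes. In WT cells the 3 genes that are off there rose: DACH1 by 2.73 on the log2 scale (SE 0.13, edgeR adjusted p = 8.39e-12), ARHGAP15 by 1.94 (SE 0.13, adjusted p = 8.99e-07) and LINC03056 by 1.60 (SE 0.16, adjusted p = 7.87e-10). In absolute terms these were rises from 1.08 to 7.44 CPM, from 3.45 to 13.5 CPM and from 0.620 to 1.97 CPM. Of the genes active in WT, ZNF804A rose by 1.03 (SE 0.05, adjusted p = 5.31e-17) and PTPRC fell by 0.41 (SE 0.07, adjusted p = 2.01e-05). PAK5 (0.04, SE 0.12, adjusted p = 0.834), ROBO1 (-0.09, SE 0.07, adjusted p = 0.32) and LINC01818 (0.19, SE 0.11, adjusted p = 0.154) did not pass. Thus 5 of 8 passed, beside 42.4% of all genes, 17.7% upward and 24.7% downward, and hairpin groups did not overlap in 7 of 8, beside 57.6% of all genes, with a median log2 change of 0.10 over all genes. Changes of at least 2-fold were 4 of 8, beside 10.9% of all genes.

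In KO cells the 3 genes active there fell in the libraries labelled shMBD6: DACH1 by 0.67 on the log2 scale (SE 0.07, edgeR adjusted p = 2.36e-07), ARHGAP15 by 0.55 (SE 0.08, adjusted p = 0.00051) and LINC03056 by 0.87 (SE 0.08, adjusted p = 6.28e-11). ROBO1, near-silent in KO, fell by 1.19 (SE 0.14, adjusted p = 4.31e-08). The other 4 entered the fit through their WT libraries and held 3 to 30 reads in each KO library, where a change of modest size is not detectable: PTPRC changed by 0.44 (SE 0.43, adjusted p = 0.467), ZNF804A by 0.20 (SE 0.20, adjusted p = 0.541), PAK5 by -0.44 (SE 0.36, adjusted p = 0.375) and LINC01818 by -0.80 (SE 0.35, adjusted p = 0.0788). Without KO shControl replicate 1, LINC01818 passed at -1.26. All 4 genes called were those with 60 reads or more in each KO library, so the count of 4 of 8 says little about the others, beside 36.4% of all genes called, 15.7% upward and 20.6% downward. The same 4 had hairpin groups that did not overlap, beside 43.8% of all genes. Only ROBO1 changed at least 2-fold, beside 9.05% of all genes. MBD6 itself was not lower in these libraries, as given above, so the contrast is between labels.

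**Figure D3:**
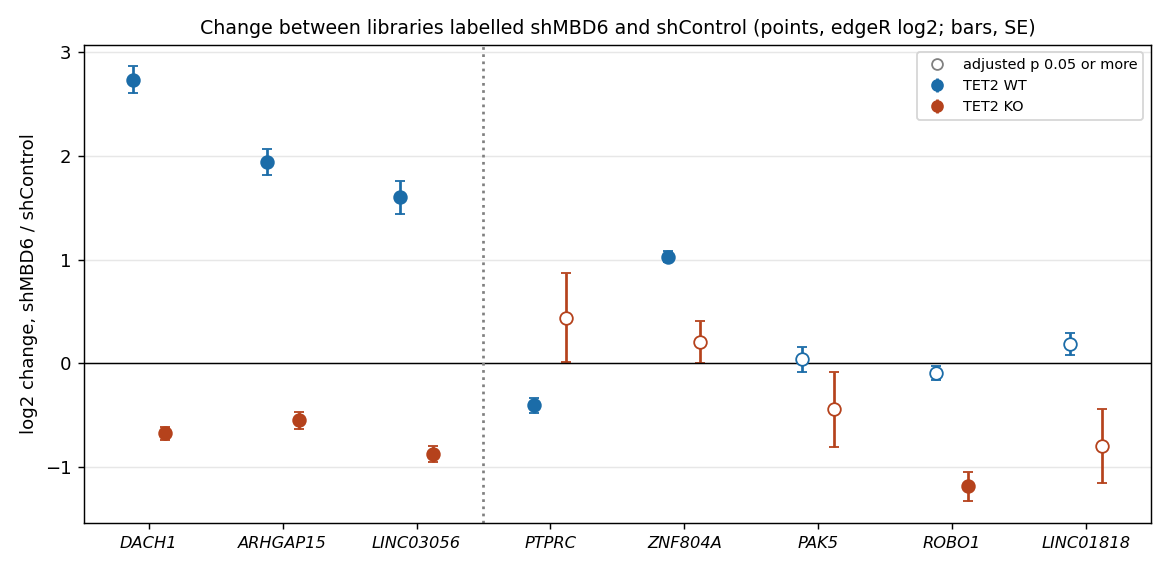
Log2 change between libraries labelled shMBD6 and shControl from the edgeR fit, with bars for the SE, in TET2 WT and TET2 KO; open points have an adjusted p of 0.05 or more. DACH1, ARHGAP15 and LINC03056 sit at 2.73, 1.94 and 1.60 in WT and at -0.67, -0.55 and -0.87 in KO, and the other 5 genes range from -1.19 to 1.03.

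The difference between the 2 hairpin changes, KO minus WT, is the interaction term of the same fit. It is also the difference between the 2 genotype contrasts that chose the genes, so it is given as a value with its SE, without a test. It was -3.41 for DACH1 (SE 0.14), -2.49 for ARHGAP15 (SE 0.15), -2.47 for LINC03056 (SE 0.17), -1.09 for ROBO1 (SE 0.16), -0.99 for LINC01818 (SE 0.37), -0.82 for ZNF804A (SE 0.21), -0.48 for PAK5 (SE 0.39) and 0.85 for PTPRC (SE 0.44). In the fit over all genes, 49.4% passed (23.9% above and 25.5% below 0, 24.2% at least 2-fold), with a median of -0.19, and 6 of the 8 did, from which nothing is read. PTPRC, at 5 to 18 reads in the KO libraries labelled shMBD6, gave -0.043 without replicate 2 of that group. MBD6 had an interaction of 0.75.

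For the 48 other genes active in KO the same contrasts are given as a description, since both shControl groups that chose these genes are also the baselines of the hairpin contrasts. In WT their median log2 change was 1.46, with 40 passing upward and 0 downward by edgeR, and in KO it was -0.60, with 1 passing upward and 30 downward. The shares of all genes were 17.7% upward and 24.7% downward in WT and 15.7% and 20.6% in KO. The choice by the same libraries favours these directions, and by how much was not tested.

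Genes around the 8 were examined next, since a switch can be limited to 1 transcript or be shared along a stretch of chromosome. Neighbours were taken by position only, as all genes within 1 Mb of either end, 202 annotated and 76 tested. Between shControl libraries, 38 of 76 neighbours passed for KO against WT (50.0%, beside 45.8% of all genes), 20 higher and 18 lower, 25 of them in the direction of the gene they flank and 13 against it. Between shMBD6 libraries, 48 of 76 passed (63.2%, beside 58.6%), 34 in the direction of the flanked gene and 14 against it. The share called was thus near that of all genes in both pairs. The median absolute log2 change was 0.84 among neighbours and 0.53 among all genes in the shControl pair, and 1.44 and 0.65 in the shMBD6 pair. Of the neighbours, 26 were under 1 CPM in every group, where fitted changes are large and imprecise. In both pairs and with the same sign, 21 of 76 neighbours passed, 15 of them in the direction of the flanked gene. Among all 26023 genes, 8749 passed in both pairs, 4145 of these with opposite signs. The share to be found in the direction of a flanked gene without any link was not tested.

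LINC03056 sat among genes that moved with it on both sides. AVPR1A, the vasopressin receptor 1A gene, 141 kb downstream, was at 0.0808 CPM in WT shControl and 8.72 in KO shControl (log2 change 6.64, SE 0.52, edgeR adjusted p = 1.47e-09), and at 0.266 and 5.32 CPM in the shMBD6 pair (4.37, adjusted p = 1.07e-07). DPY19L2, a gene of sperm head formation, 199 kb upstream, went from 1.39 to 50.0 CPM (5.15, SE 0.11, adjusted p = 4.43e-28) and from 3.96 to 43.2 CPM (3.46, adjusted p = 3.97e-24). Farther out, and chosen after their values were seen, ENSG00000249753 at 264 kb rose by 3.21 and 2.03 and the phosphatase gene PPM1H at 357 kb by 1.43 and 1.08, with PPM1H already at 183 CPM in WT shControl. ENSG00000257235, 286 kb downstream and at most 0.128 CPM in a group mean, had 4.63 (edgeR adjusted p = 0.036) and -4.08 (adjusted p = 0.056). The 13 tested genes farther out lay between -2.77 and 0.54 in the shControl pair. Of 18 tested neighbours of LINC03056, 8 passed upward and 2 downward in the shControl pair, and 6 and 4 in the shMBD6 pair.

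ARHGAP15 had 1 close neighbour that rose clearly, KYNU, the kynureninase gene of tryptophan breakdown, 35.5 kb upstream. KYNU was at 28.0 to 31.6 CPM in WT shControl and 119.6 to 133 CPM in KO shControl (log2 change 2.10, SE 0.05, edgeR adjusted p = 9.8e-27), and the shMBD6 pair gave 1.62 (adjusted p = 2.36e-23). The pseudogene RRN3P4, 235 kb upstream, had 4.18 and 2.19, the former the largest change on that side in the shControl pair, at no more than 0.698 CPM in any group mean. LRP1B, a receptor gene 960.4 kb upstream and named after its values were seen, went the other way, with -1.73 and -2.99 (edgeR adjusted p = 2.74e-10 and 1.37e-15). Downstream, and chosen after their values were seen, GTDC1 at 170 kb stood at 156 and 151 CPM in the shControl pair (-0.04, adjusted p = 0.383) and fell in the shMBD6 pair by 0.52 (adjusted p = 1.38e-13), and ZEB2, a transcription factor gene at 596 kb, had -0.45 in the shControl pair and 0.41 in the shMBD6 pair. The nearest tested gene downstream, ENSG00000236356, and the 3 tested antisense RNAs inside ARHGAP15 (ARHGAP15-AS1, ENSG00000257226 and ENSG00000257277) stayed under 1 CPM in every group mean and passed in neither pair.

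DACH1 had few tested neighbours, 5 of 20 annotated within 1 Mb. In each pair 2 of the 5 passed (40.0%, beside 45.8% and 58.6% of all genes), all higher in KO like DACH1. None passed in both pairs with the same sign. Its nearest tested neighbours were LINC00348, 270 kb downstream, with a log2 change of 1.34 in the shControl pair (1.55 against 3.90 CPM, edgeR adjusted p = 8.51e-05) and 0.44 in the shMBD6 pair (adjusted p = 0.157), and MZT1, 841 kb upstream, with -0.21 and 0.27 (edgeR adjusted p = 0.119 and 0.0339). All 5 tested neighbours lay between -0.21 and 1.34 in the shControl pair, against 8.22 for DACH1.

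Around PTPRC, 6 of 8 tested neighbours passed downward between shControl libraries and 1 upward, at mostly low levels. Between shMBD6 libraries 4 passed downward and 0 upward. Of all genes, 22.3% were called lower in KO in the shControl pair and 28.5% in the shMBD6 pair. MIR181A1HG, the host RNA of a miR-181 pair, 20.4 kb downstream, had a log2 change of -3.17 (0.882 against 0.0970 CPM, edgeR adjusted p = 8.41e-05), and -5.70 in the shMBD6 pair (adjusted p = 6.51e-08). LINC01221, 259 kb downstream, had 66 reads over the 3 WT shControl libraries and 0 over the KO shControl libraries, at least 16.9-fold lower against a floor of 3 reads over the group, and 67 against 0 in the shMBD6 pair, at least 23.1-fold lower. The expressed kinase gene NEK7, 316 kb upstream, moved little, from 340 to 309.7 CPM (-0.14, adjusted p = 0.00133) and by -0.54 in the shMBD6 pair.

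PAK5 had neighbours that moved with it and against it, 3 and 4 of 9 tested in the shControl pair and 5 and 4 in the shMBD6 pair. The nearest moved against it. PLCB4, a phospholipase C gene whose near end is 32.8 kb from the 3′ end of PAK5, was at 32.3 to 34.8 CPM in WT shControl and 165 to 175.5 CPM in KO shControl (log2 change 2.34, SE 0.05, edgeR adjusted p = 1.1e-28). The shMBD6 pair gave 2.79 (21.8 against 150 CPM, adjusted p = 6.12e-30), so that PLCB4 was up where PAK5 was off, in both pairs. ANKEF1, 147 kb upstream, rose by 1.36 and 1.15 at 0.748 to 1.93 CPM. Lower in KO like PAK5, and named after their values were seen, were SNAP25-AS1 (-2.21 and -2.79, edgeR adjusted p = 0.000373 and 1.21e-05) and ENSG00000270792 (-1.62 and -3.62). PLCB1, another phospholipase C gene named after its values were seen, had 0.61 and 0.30.

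ZNF804A had no close tested neighbour, the nearest being ELF2P4 at 608 kb and ENSG00000234172 at 649 kb, and 0 of its 5 neighbours passed in the shControl pair by edgeR. In the shMBD6 pair 3 of 5 passed, all lower in KO like ZNF804A, namely FSIP2 (-1.17), ENSG00000234172 (-3.24) and ELF2P4. ELF2P4 held 26 reads in WT, unevenly spread at 3 to 17 per library, and 0 in KO, at least 7.44-fold lower. ROBO1 had few tested neighbours too, with 1 of 4 called in the shControl pair, ROBO2 at 947 kb, which had 0.91 (22.5 CPM in KO shControl) and 0.13 in the shMBD6 pair. Its nearest tested neighbours, ENSG00000240241 at 303 kb and ENSG00000242828 at 993 kb, did not pass in the shControl pair. In the shMBD6 pair ENSG00000240241 held 51 reads in WT and 0 in KO, at least 16.3-fold lower.

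LINC01818 had 14 tested neighbours, of which 4 passed downward and 2 upward in the shControl pair and 10 downward and 3 upward in the shMBD6 pair. LINC02612, 256 kb away, held 38 reads in WT shControl, unevenly spread at 1 to 27 per library, and 1 in KO shControl. In the shMBD6 pair it held 96 (17 to 46 per library) and 0, at least 29.5-fold lower. The nearest tested gene upstream, MMADHC-DT (122 kb), did not move the same way in the 2 pairs, with 0.47 (edgeR adjusted p = 0.0367) and -0.48 (adjusted p = 0.0274). The antisense LINC01817 had -1.10 (adjusted p = 0.437) and -4.27 (adjusted p = 0.00308).

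**Figure D4:**
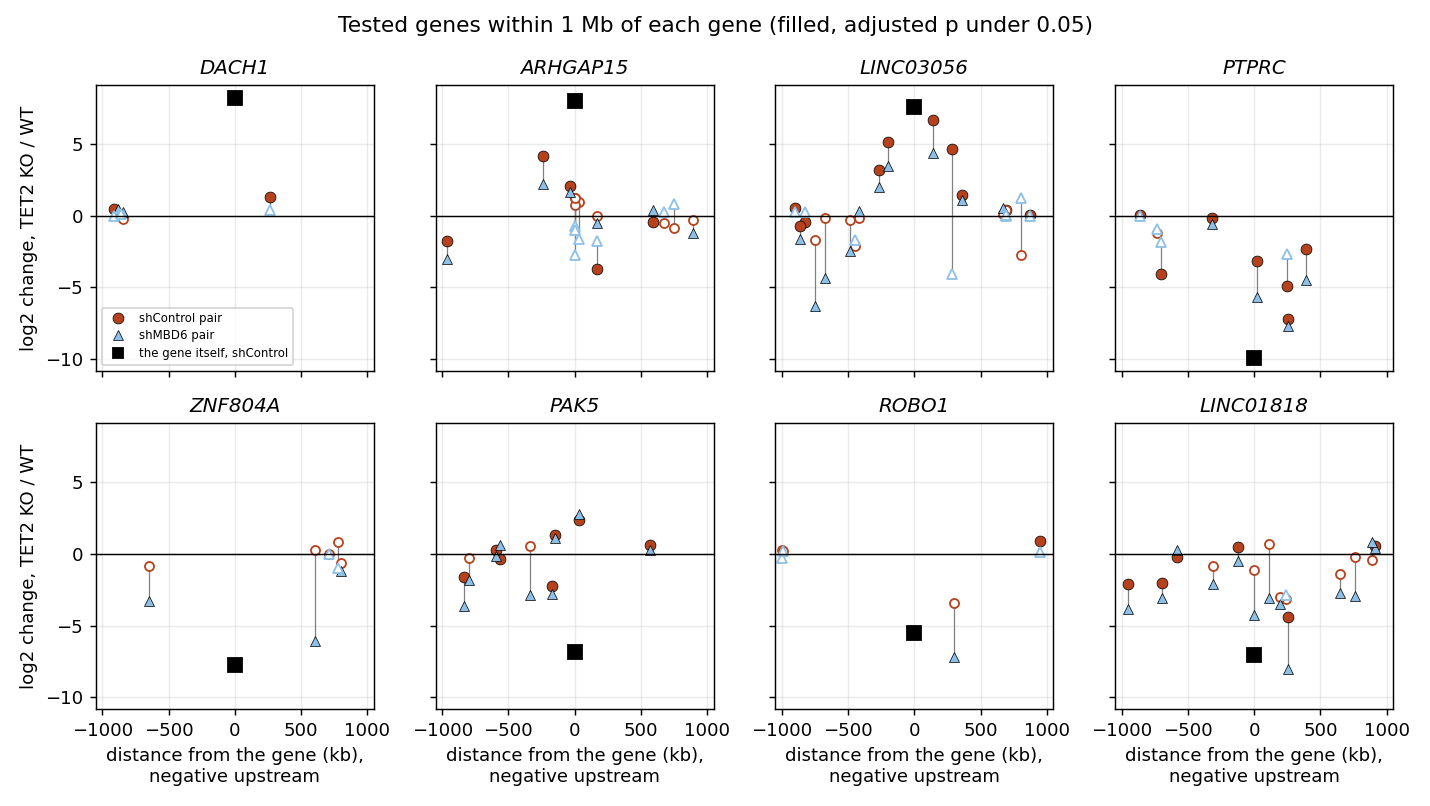
Log2 change between TET2 KO and WT for every tested gene within 1 Mb of each of the 8 genes, against distance in kb from the nearer end (negative upstream, overlapping genes at 0). Circles are the shControl pair and triangles the shMBD6 pair, filled where the adjusted p was under 0.05, with a line joining the 2 values of a gene and a black square for the gene itself. Around LINC03056 the changes are high within 264 kb on the upstream side and at 141 kb downstream, PLCB4 stands at 2.34 beside PAK5 at -6.82, and the 5 neighbours of DACH1 lie between -0.21 and 1.34.

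The last comparison takes the families and partners of the 8 genes, 62 listed and 55 tested. CDC42 and PTPRCAP were at 0 counts in every library, which, with ambiguous reads left out, does not show that they were silent. For KO against WT, 35 of 55 passed between shControl libraries (63.6%, beside 45.8% of all genes), 20 higher and 15 lower, with a median log2 change of 0.02 (all genes -0.05). Between shMBD6 libraries 44 passed (80.0%, beside 58.6%), 14 higher and 30 lower, with a median of -0.33 (all genes -0.03). Only 30 passed in both pairs, 8 higher in both, 11 lower in both and 11 in opposite directions (36.7%). Among all genes called in both pairs, 4145 of 8749 (47.4%) had opposite directions. The 8 genes described here held their direction in both pairs, from which nothing is read, since the contrast between genotypes chose them.

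None of the 55 relatives was switched as fully as the 8. Those called in both pairs with the same sign and at least 2-fold in each were 9, all lower in KO and all under 7 CPM in WT shControl. In the receptor tyrosine phosphatase and SRC-family kinase list (27 tested, 19 and 25 called) these were PTPRD (log2 changes -1.46 and -2.64), PTPRE (-2.06 and -2.72), PTPRG (-1.59 and -2.69), PTPRN2 (-1.004 and -2.52), PTPRT (-1.59 and -3.05) and PTPRZ1 (-1.30 and -2.03). The SRC-family kinases that CD45 acts on and K562 cells transcribe most, chosen after their values were seen, moved much less: LYN had -0.03 and 0.58, FYN -0.30 and -0.59, and YES1 0.23 and -0.50.

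In the Rac, CDC42 and PAK list (10 tested, 5 and 8 called), which holds the partners of ARHGAP15 and PAK5, PAK3 had -1.70 and -3.82, from 1.35 to 0.414 CPM in the shControl pair. PAK1, named after its values were seen, rose by 2.06 (13.4 to 56.0 CPM, edgeR adjusted p = 8.27e-22) and by 0.75 in the shMBD6 pair. RAC1, a Rac gene, had -0.31 and 0.41 and so changed sign between pairs. Among DACH2, the EYA genes and their sine oculis partners (8 tested, 5 and 3 called), the paralogue DACH2 had -1.26 and -1.57, opposite to DACH1, and EYA1 had -1.85 and -3.84. Higher in KO in the shControl pair were EYA4 (2.29), EYA2 (1.55) and EYA3 (0.20), of which EYA3 alone passed in the shMBD6 pair, at 0.29.

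Among ROBO receptors, SLIT ligands and SRGAP effectors (9 tested, 5 and 7 called), no gene met the 2-fold rule in both pairs. All 5 calls in the shControl pair were higher in KO, against the direction of ROBO1, with log2 changes from 0.59 (SRGAP2) to 1.11 (SRGAP3), while the shMBD6 pair had 3 higher and 4 lower. ZNF804B, the paralogue of ZNF804A, had 2.04 in the shControl pair (16.8 against 69.4 CPM) and -2.03 in the shMBD6 pair (95.3 against 23.3 CPM), both past the edgeR threshold (adjusted p = 5.47e-25 and 1.17e-24).

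**Figure D5:**
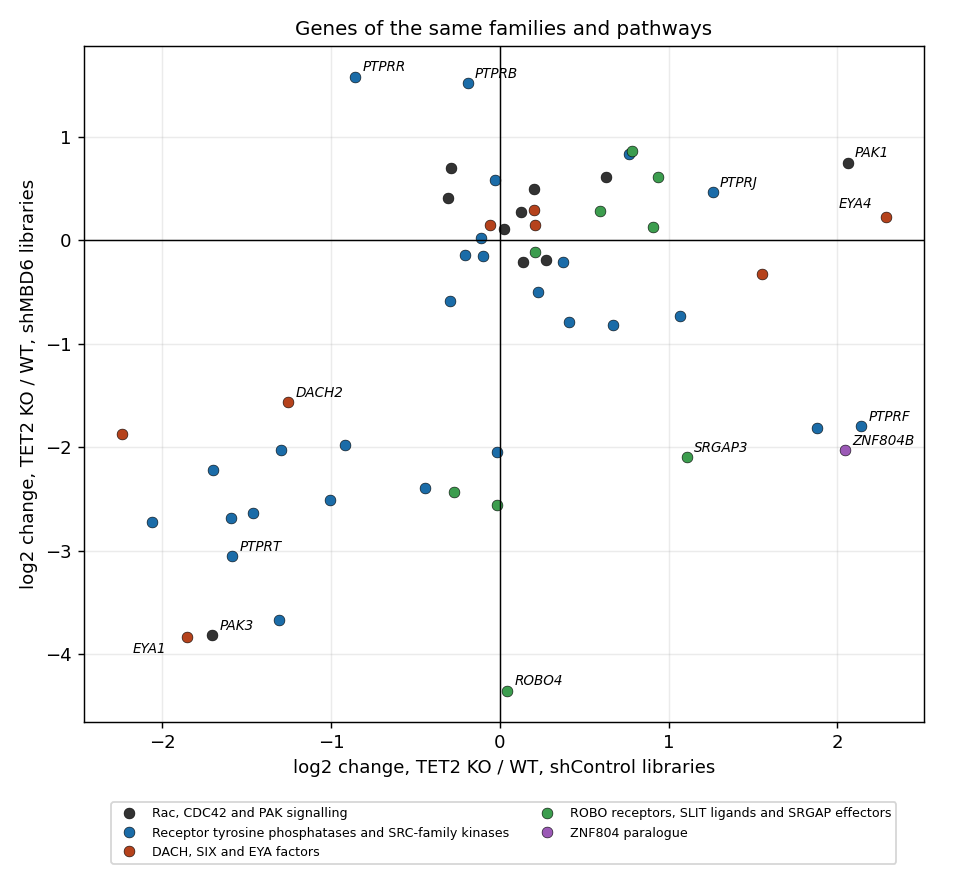
Log2 change between TET2 KO and WT in shMBD6 libraries against that in shControl libraries for 55 tested relatives and partners of the 8 genes, coloured by list, with 13 genes named. PAK3 and EYA1 lie low in both pairs, and PTPRF, ZNF804B and SRGAP3 lie above 1 in the shControl pair and at -1.80 or below in the shMBD6 pair.

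Outside these lists, the gene whose profile over the 12 libraries was nearest to that of each of the 8 was sought among all other tested genes, by the root mean square distance of log2 CPM after centring each gene. XACT, a long non-coding RNA of the X chromosome, was nearest to DACH1 (distance 0.515), ARHGAP15 (0.410) and LINC03056 (0.321). XACT had mean levels of 7.54 and 23.0 CPM in the WT groups and 1115 and 691 CPM in the KO groups (shControl and shMBD6). CSMD3 was nearest to PAK5 (0.663), ROBO1 (0.504) and LINC01818 (0.937), with 54.0 and 51.7 CPM in WT and 1.08 and 0.721 in KO. B3GALNT1, a glycosyltransferase gene, was nearest to PTPRC (1.55), and the pseudogene CHMP1B2P to ZNF804A (1.13). These distances describe 12 libraries in 4 groups and carry no test.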

How the data were processed

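caRNA of 12 K562 libraries (4 groups of 3) was analysed. The authors trimmed reads with Trimmomatic (0.39), aligned them to hg38 with HISAT2 (2.2.1), counted them per GENCODE gene and deposited raw counts. HTSeq (0.12.4) and, for caRNA, featureCounts are named in the methods, and the deposited count files carry HTSeq's summary lines. Lines that name no gene (28.4% to 31.5% of read records) were left out. The methods add ERCC spike-in RNA, but the files used here hold 0 ERCC lines, so levels are relative to the library and a change in total caRNA cannot be seen.

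Symbols were matched for 99.1% of 58721 genes. Counts entered 1 edgeR (4.0.16, R 4.3.3) quasi-likelihood fit over 4 groups, with TMM scaling, a filter on low counts (filterByExpr, minimum count 10) and Benjamini-Hochberg adjustment over 26023 genes, called at 0.05. The code was tested on simulated counts. Replicates differed beyond sampling noise (chi-square per degree of freedom 5.30 to 14.9), so each counted as 1 sample. Alternatives were DESeq2 (1.42.0), other scalings and filters, fits on the compared groups only, a replicate block, single libraries left out and windows of 0.5 and 2 Mb.

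The genes and lists were chosen with earlier results of these data known. Named beside the 8 genes were the nearest tested gene on each side, tested overlapping genes, the neighbour within 1 Mb with the largest change called alike in both pairs, related genes called alike and at least 2-fold in both pairs, and the nearest profile. The nearest gene on 1 side of LINC01818 is not reported here. Any other gene named was chosen after its values were seen. Mouse libraries entered no comparison.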

Additional observations from a re-analysis of the deposited data

Results flagged for a closer look

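The interaction term of the edgeR fit is the change between hairpin labels in TET2 KO minus that in TET2 WT. It was past the threshold for 6 of the 8 genes, beside 49.4% of all genes, and nothing is read from this count. The term is built from the genotype contrasts that chose the genes, so these values are a description. On the log2 scale it was -3.41 for DACH1, -2.49 for ARHGAP15, -2.47 for LINC03056, -1.09 for ROBO1, -0.99 for LINC01818 and -0.82 for ZNF804A. For DACH1, ARHGAP15 and LINC03056 the WT change was a rise and the KO change a fall, each past the threshold within its genotype. The choice of the genes favours both directions, by an amount not tested. MBD6 was lower in the WT libraries labelled shMBD6 and not in the KO ones, and its part in these differences was not tested.

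Mouse embryonic stem cell libraries of the same series, which entered no comparison here, held reads of the orthologues of the 6 coding genes. Mean levels in siControl cells were 9.25 CPM for Dach1, 18.0 for Arhgap15, 2.64 for Ptprc, 5.11 for Zfp804a, 10.7 for Pak7 (the mouse PAK5 gene) and 412 for Robo1. Per kb of gene span, Robo1 stood at 0.559 CPM and the other 5 between 0.0234 and 0.0348.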

How the results depend on the processing

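Requiring at least 2-fold left 1 of the 8 genes called between hairpin labels in KO, beside 9.05% of all genes. In the shControl pair it left 22 of 76 neighbours and 18 of 55 related genes, beside 17.7% of all genes. In the shMBD6 pair it left 34 of 76 neighbours and 23 of 55 related genes, beside 26.9%. A 0.5 Mb window gave 19 and 24 called of 34 tested neighbours in the shControl and shMBD6 pairs. A 2 Mb window gave 77 and 101 of 154. Of all genes, 45.8% and 58.6% were called in these pairs. Keeping neighbours of at least 1 CPM, an alternative chosen after seeing the data, gave 31 and 37 of 50. Leaving out single libraries gave 5 to 5 of the 8 genes for the hairpin in WT, 4 to 5 in KO and 5 to 7 for the interaction. It gave 29 to 41 and 45 to 49 of 77 to 80 tested neighbours. Of 55 to 56 related genes it gave 33 to 37 and 40 to 45.

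Libraries of the same replicate number deviated together in part: 7 of 18 same-number pairs had a correlation of deviations over 0.1 (range -0.05 to 0.30). Pairs with different numbers ranged from -0.20 to 0.13. Replicate 1 of WT shControl had 0.30 with replicate 1 of WT shMBD6 and 0.21 with that of KO shControl. Whether the number marks a batch was not tested. With the replicate number as a block, counts were 5, 4 and 6 of the 8 genes, 36 and 49 of 76 neighbours and 36 and 43 of 55 related genes. All 24 tested values of the 8 genes kept direction and call, and 68 of 70 of the other named values did.

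Of 447 alternative values of the 8 genes for the hairpin and the interaction, 424 kept direction and call, 13 changed call and 10 changed sign, none of them a called value. ROBO1 in WT became 0.019 with DESeq2, 0.018 with RLE factors, 0.013 without a filter and 0.0050 with total counts. Without single libraries, PTPRC ranged from -0.45 to 0.80 in KO and from -0.043 to 1.21 for the interaction. PAK5 ranged from -0.028 to 0.12 in WT (below 0 also without WT shControl replicate 3), from -0.90 to 0.093 in KO and from -0.93 to 0.061 for the interaction. ENSG00000257226 ranged from -0.015 to 1.08 and ELF2P4 from -1.70 to 2.58 (below 0 also without WT shControl replicate 2 or 3) between genotypes with shControl. TET2 between genotypes with shControl became -0.089 with total counts. The cause of these changes was not tested. RLE factors moved the median of all genes to 0.21 for the hairpin in WT, and total counts moved it to -0.23 between genotypes with shControl. The genotype change of the 8 genes changed sign in 0 of 304 values. Silent levels rest on 3 to 30 reads a library for PTPRC, ZNF804A, PAK5 and LINC01818, so that small changes there were not detectable at this depth.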
